A study of Mus musculus with 6 samples.

Results

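The Homer, Shank and Dlgap genes encode scaffold proteins of the postsynaptic density, the protein layer beneath the receptors of excitatory synapses. The genes described are the 10 whose name in the authors' comparison is Homer1, Homer2, Homer3, Shank1, Shank2, Shank3, Dlgap1, Dlgap2, Dlgap3 or Dlgap4, each found once among 17385 listed genes. The RNA was hippocampal, from C57BL/6 mice aged 2 months, in 2 groups of 3 samples. The control group carried EMX1-Cre alone. The sATF6-KI group carried the same Cre together with the Rosa26-sATF6-MER allele, a knock-in for the short form of ATF6, a transcription factor that raises ER folding genes in the unfolded protein response. Emx1 drives Cre in the progenitors of forebrain excitatory neurons and of some glia, so the construct is expected in cells of that origin. In which cells it was made was not measured here. The sources used here do not say whether the mice received a ligand for the MER part. By its title, the series asks how overexpressing this form of ATF6 in neurons alters transcript levels.

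These scaffolds stack in layers. Dlgap proteins, also called GKAP or SAPAP, bind the MAGUK scaffold PSD-95 on the membrane side and Shank proteins on the other. Shank proteins bind Homer, and Homer's EVH1 domain holds metabotropic glutamate receptors and, at the ER, inositol trisphosphate and ryanodine receptors. Long Homer forms tetramerize through a coiled coil, while Homer1a, a short form made after neuronal activity, lacks it and uncouples these links. In mice Homer3 is best known from cerebellar Purkinje cells and is also made in the hippocampus.

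Promoter sequence is shown for the 3 genes that were called lower, since ATF6 acts through DNA elements near gene starts. Each run is the 250 bases before a RefSeq gene start (GRCm38.p6), read 5′ to 3′ on the gene's strand. GENCODE M21 starts some genes elsewhere: its Homer3 begins at 70282827, within the window shown, and its Homer1 at 93299635, before it, so these windows hold annotated gene sequence in that set. Capitals mark CCACG, the 3′ part of the ER stress element, and TGACG, part of the cAMP response element and of the ATF6 site, on either strand.

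Homer3, chr8:70282749-70282998, plus strand: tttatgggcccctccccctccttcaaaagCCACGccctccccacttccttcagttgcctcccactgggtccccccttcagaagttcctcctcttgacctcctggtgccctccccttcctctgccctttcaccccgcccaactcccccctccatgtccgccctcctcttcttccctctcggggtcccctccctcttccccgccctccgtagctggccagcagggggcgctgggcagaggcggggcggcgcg

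Homer1, chr13:93303507-93303756, plus strand: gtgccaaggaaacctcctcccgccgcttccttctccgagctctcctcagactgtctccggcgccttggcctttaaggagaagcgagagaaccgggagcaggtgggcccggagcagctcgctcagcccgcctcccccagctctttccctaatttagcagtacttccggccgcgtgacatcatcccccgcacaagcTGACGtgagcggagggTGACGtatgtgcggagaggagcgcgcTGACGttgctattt

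Shank3, chr15:89499358-89499607, plus strand: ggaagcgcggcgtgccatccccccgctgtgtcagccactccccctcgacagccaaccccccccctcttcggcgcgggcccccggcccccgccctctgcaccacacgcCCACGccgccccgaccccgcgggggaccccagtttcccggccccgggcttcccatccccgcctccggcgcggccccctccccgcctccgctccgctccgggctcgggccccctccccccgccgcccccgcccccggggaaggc

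The Homer1 window shown held TGACG 3 times, ending 10, 36 and 52 bases before the start, and no CCACG. RefSeq gives Homer1 another start, and its window, chr13:93307784-93308033, held neither. The Homer3 window held 1 CCACG, its nearest base 217 bases before the start, and the Shank3 window held 1 at 139 bases. RefSeq promoters matched 7 of the 10 genes, with 10 starts in all, and the genes without a match were Shank1, Shank2 and Dlgap2. The full ER stress element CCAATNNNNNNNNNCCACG, the ATF6 site TGACGTGG and the full cAMP response element TGACGTCA were each found in 0 of these 10 windows. Over 32851 RefSeq promoters of the same length they were found in 0.113%, 0.563% and 1.55%. CCACG was found in 5 of the 10 windows and in 28.3% of all promoters, and TGACG in 1 of the 10 and in 17.8%. TGACG lies within TGACGTCA and TGACGTGG, and the reverse complement of CCACG lies within TGACGTGG, so these counts overlap. The 5 windows with CCACG held from 52.4% to 83.2% G or C, where the median over all promoters was 52.4%. The shares make no allowance for this, so 5 of 10 is not shown to be an excess. A match to these letters is a description and not a binding site.

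All fold changes and p-values come from the authors' deposited table, a single DESeq2 comparison of sATF6-KI over control, with p adjusted over all 17385 genes. Values per mouse were not used, because the library columns carry names that match no sample label, so neither depth nor spread within a group can be shown. Errors after ± are Wald standard errors on the log2 scale (each fold change divided by its Wald statistic), and they give the 95% intervals. Genes were called at an adjusted p under 0.05. The labels do not say that the 3 samples of a group are separate mice, so the p-values measure the spread between these samples. In whole hippocampus, fewer cells of a type and less RNA per cell cannot be told apart. The knock-in showed per the authors' deposited table as Esr1, the receptor gene from which MER derives, 68.0-fold higher (95% interval 59.6 to 77.6), and Atf6, 1.43-fold higher (95% interval 1.31 to 1.55); whether their reads came from the construct was not tested.

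Of the 10 scaffold genes 3 were lower in sATF6-KI, Homer3, Shank3 and Homer1, and none was higher. Homer3 fell most, by 0.61 on the log2 scale per the authors' deposited table, while Shank3 and Homer1 fell by 0.22 and 0.24. Across all listed genes 1.93% were called lower, 3.41% higher and 5.34% in either direction. The 10 are abundant transcripts, with a baseMean from 2084 to 28221, where baseMean is the authors' mean normalized signal over all libraries. Abundant genes were called lower more often: of the 4507 genes with a baseMean of at least 2000, 5.57% were called lower and 67.1% had a log2 fold change below 0, with a median of -0.05. Against that, 7 of the 10 scaffold genes were below 0, and their median log2 fold change was -0.13, with 0.00 over all listed genes. At an unadjusted p under 0.05, 6 of the 10 were lower and 0 higher, where 7.59% of all genes and 19.4% of the abundant ones were lower and 8.2% of all genes higher.

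**Figure D1:**
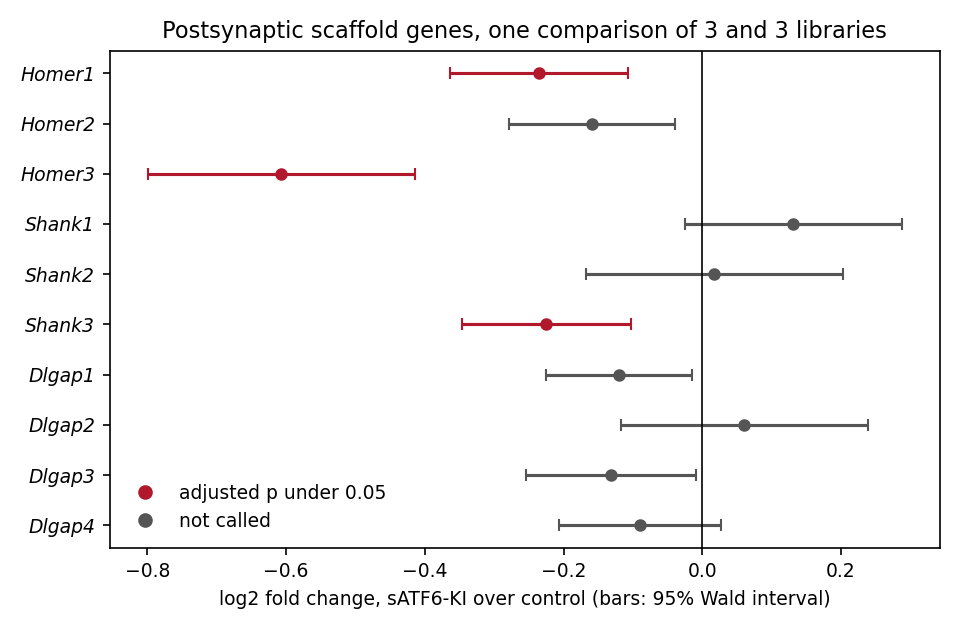
Log2 fold change of each scaffold gene, sATF6-KI over control, from the authors' comparison of 3 and 3 libraries; points are the deposited values and bars their 95% Wald intervals. Homer3 lies at -0.61, away from the other 9 genes, which lie between -0.24 and 0.13.

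All 3 Homer genes had a log2 fold change below 0, as did 67.1% of genes with a baseMean of at least 2000. Homer3 (ENSMUSG00000003573) lies on chromosome 8 from 70282827 to 70294361 (GRCm38, GENCODE M21). It was 1.52-fold lower in sATF6-KI per the authors' deposited table, a log2 fold change of -0.61 ± 0.10 (95% interval 1.33-fold to 1.74-fold lower), with the authors' DESeq2 adjusted p = 7.95e-08. By p-value it was the third among all genes below 0, after Itpka, a kinase of dendritic spines, and Adcy1, a neuronal adenylyl cyclase. None of the 7056 genes with a baseMean of at least 1000 had a lower log2 fold change than Homer3 per the authors' deposited table, and Itpka, next among genes of at least 2000, had -0.49 ± 0.07. Genes with a lower value than Homer3 numbered 181 over the whole table, of which 8 were called.

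Exons of Homer3 share 874 bases, 25.4% of its exonic length, with Ddx49, an RNA helicase gene on the opposite strand. The library kit keeps strand, but the sources used here do not give the strand setting of the counting. Ddx49 itself had a log2 fold change of -0.05 per the authors' deposited table, with adjusted p = 0.871 by DESeq2.

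Homer1 (ENSMUSG00000007617), on chromosome 13 from 93299635 to 93405129 (GRCm38), was 1.18-fold lower per the authors' deposited table (95% interval 1.08-fold to 1.29-fold), with the authors' DESeq2 adjusted p = 0.0112. GENCODE M21 annotates 12 Homer1 transcripts, 11 of them coding, and the value per gene pools the long scaffold forms with Homer1a, so which form was lower was not measured. Homer2 (ENSMUSG00000025813), the other long forebrain Homer, on chromosome 7 from 81600481 to 81707527 (GRCm38), had a log2 fold change of -0.16 ± 0.06 per the authors' deposited table. Its 95% interval, 1.03-fold to 1.21-fold lower, lay below 0 on the log2 scale, but its DESeq2 adjusted p of 0.116 missed the threshold. The interval of Homer3, from -0.80 to -0.41, shared no value with those of Homer1, from -0.36 to -0.11, and Homer2, from -0.28 to -0.04; the difference between these genes was not tested.

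Among the Shank genes, the master scaffolds that link Dlgap to Homer and to actin regulators, 1 of 3 was called. The share called lower was 5.57% of genes with a baseMean of at least 2000. Shank3 (ENSMUSG00000022623), a gene whose loss in humans is linked to Phelan-McDermid syndrome and autism, lies on chromosome 15 from 89499623 to 89560261 (GRCm38). It was 1.17-fold lower per the authors' deposited table (95% interval 1.07-fold to 1.27-fold), with the authors' DESeq2 adjusted p = 0.0103. Shank2 (ENSMUSG00000037541), on chromosome 7 from 144001928 to 144424494 (GRCm38), had a log2 fold change of 0.02 ± 0.09 per the authors' deposited table (adjusted p = 0.968 by DESeq2). Shank1 (ENSMUSG00000038738), a spine scaffold on chromosome 7 from 44310253 to 44360572 (GRCm38), stood on the other side of 0 at 0.13 ± 0.08 per the authors' deposited table (adjusted p = 0.446 by DESeq2). The 95% intervals reached from -0.17 to 0.20 for Shank2 and from -0.03 to 0.29 for Shank1, and both include 0. Shank3 shares 271 exonic bases, or 2.95%, with Gm15609, a noncoding gene on the opposite strand at a log2 fold change of 0.47 per the authors' deposited table (adjusted p = 0.717 by DESeq2), and Shank1 shares 339, or 3.22%, with 1700008O03Rik, also on the opposite strand.

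None of the 4 Dlgap genes passed the authors' DESeq2 test, though at an unadjusted p under 0.05 there were 2 below 0. Of genes with a baseMean of at least 2000, 5.57% were called lower, so 0 of 4 is near that share. At an unadjusted p under 0.05, 19.4% of those genes were lower. Dlgap1 (ENSMUSG00000003279), encoding the GKAP protein first found on PSD-95, lies on chromosome 17 from 69969073 to 70821413 (GRCm38) and had -0.12 ± 0.05 (log2) per the authors' deposited table, with adjusted p = 0.214 by DESeq2. Dlgap3 (ENSMUSG00000042388), whose loss in mice causes compulsive grooming, lies on chromosome 4 from 127169204 to 127237022 (GRCm38) and had -0.13 ± 0.06 (log2) per the authors' deposited table, with adjusted p = 0.266 by DESeq2. For Dlgap4 (ENSMUSG00000061689), on chromosome 2 from 156613705 to 156764363 (GRCm38), the authors' deposited table gives -0.09 ± 0.06 (adjusted p = 0.514 by DESeq2). For Dlgap2 (ENSMUSG00000047495), on chromosome 8 from 14095865 to 14847680 (GRCm38), it gives 0.06 ± 0.09 (adjusted p = 0.85 by DESeq2). The 4 Dlgap intervals together reached from -0.25 to 0.24 on the log2 scale, so none of them extended to the value of Homer3.

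**Figure D2:**
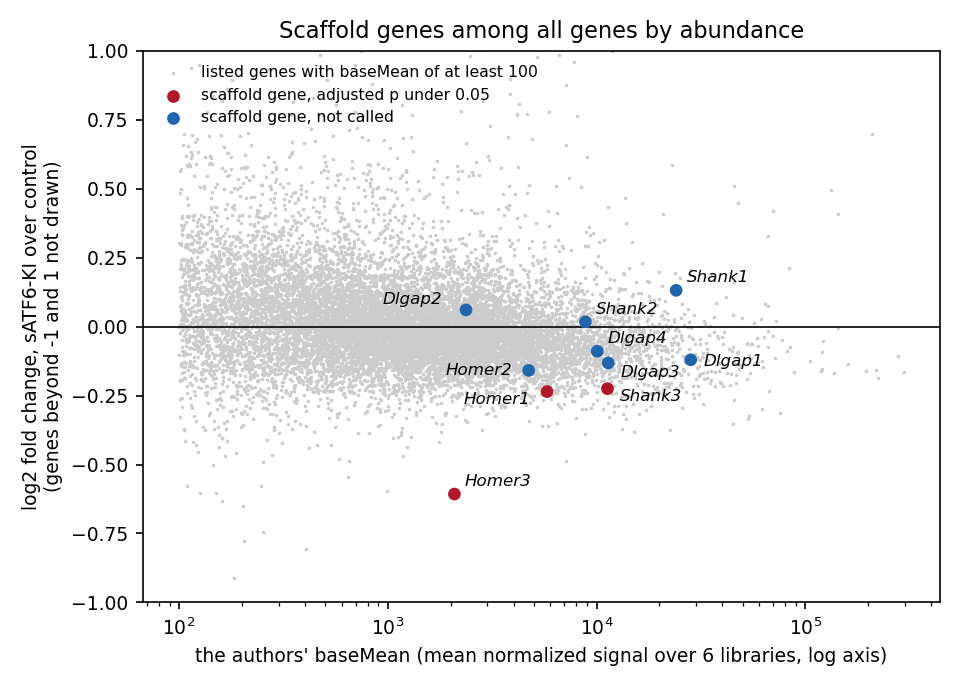
Log2 fold change, sATF6-KI over control, against the authors' baseMean (log axis) for listed genes with a baseMean of at least 100, with genes beyond -1 and 1 not drawn. Homer3, at -0.61, lies below every other gene with a baseMean of at least 1000. The other scaffold genes lie within the range of genes of like abundance, Homer1 and Shank3 near its lower edge. Of genes with a baseMean of at least 2000, 3.15% had a lower value than Homer1 and 3.62% a lower value than Shank3.

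Levels were compared between genes only after dividing baseMean by the length of all annotated exons joined (GENCODE M21). On that scale, in baseMean per kilobase, Dlgap3 at 2514 and Shank1 at 2286 were the highest of the 10. Dlgap1 followed at 1577, Shank3 at 1226, Dlgap4 at 1192 and Shank2 at 820. The Homer genes and Dlgap2 were lowest, with Homer3 at 606, Homer1 at 483, Dlgap2 at 385 and Homer2 at 374. These levels are means over both groups with no spread given, so whether neighbours in this order differ beyond the spread between mice is not known, and a gene with long exons used in few transcripts is set too low. The 3 genes called lower stood at ranks 4, 7 and 8 of the 10, in neither the highest nor the lowest place.

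Partner proteins of these scaffolds were then examined in 5 lists of 56 genes, all of them measured. In these lists 8 genes fell and none rose at adjusted p under 0.05 per the authors' deposited table, beside 1.93% of all genes and 5.57% of the abundant ones called lower. Their median log2 fold change was -0.05, near that of the abundant genes, and 35 of the 56 were below 0. Every gene called lower in these lists fell less than Homer3. The same held for every other gene below 0 with a baseMean of at least 1000, so it is not particular to these lists.

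On the membrane side, beside 1.93% of all genes and 5.57% of the abundant ones called lower, 1 of 4 MAGUK scaffolds fell. This was Dlg4, the gene for PSD-95, which was 1.13-fold lower per the authors' deposited table (95% interval 1.05-fold to 1.22-fold), with the authors' DESeq2 adjusted p = 0.0313. Dlg3, the gene for SAP102, had -0.12 ± 0.06 (log2) per the authors' deposited table, and Dlg2, for PSD-93, had -0.08 ± 0.06.

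None of the 12 genes in the list of Homer-binding proteins was called. The list includes the receptor Grm5 and the ER calcium channels Itpr1 to Itpr3 and Ryr1 to Ryr3. It leaves out the Shank genes, described above, whose proteins also bind Homer. None of the 12 had an unadjusted p under 0.05 in the authors' DESeq2 test, and the median log2 fold change was -0.0050. Over all listed genes 5.34% were called in either direction, so 0 of 12 is near that share. For an unadjusted p under 0.05 the shares of all genes were 7.59% lower and 8.2% higher. With 12 genes, 0 at that threshold is not shown to be a shortfall. Nearest were Grm5, a metabotropic glutamate receptor, at -0.10 ± 0.06 (log2) per the authors' deposited table, and Ryr3, a ryanodine receptor, at 0.16 ± 0.09.

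Of 10 Shank-binding proteins 2 fell and none rose, beside 1.93% of all genes and 5.57% of the abundant ones called lower. Abi1, an actin regulator of the WAVE complex, was 1.19-fold lower per the authors' deposited table (95% interval 1.07-fold to 1.32-fold), with the authors' DESeq2 adjusted p = 0.0269. Sptan1, the alpha spectrin that Shank binds through its ankyrin repeats, was 1.15-fold lower per the authors' deposited table, with adjusted p = 0.0112 by DESeq2. Baiap2, the spine protein IRSp53, at -0.15 ± 0.07 (log2), and Arhgef7, the exchange factor beta-PIX, at -0.12 ± 0.06, came next per the authors' deposited table without passing.

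Beside 1.93% of all genes and 5.57% of the abundant ones called lower, 1 of 7 Dlgap-binding proteins fell and none rose. It was Nefl, the light neurofilament chain, 1.16-fold lower per the authors' deposited table (95% interval 1.07-fold to 1.26-fold), with adjusted p = 0.0120 by DESeq2. Of the MAGI scaffolds, Magi1 at 0.20 ± 0.07 and Magi2 at -0.16 ± 0.06 (log2) per the authors' deposited table lay on opposite sides of 0 and missed the threshold, with adjusted p = 0.099 and 0.113 by DESeq2.

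In the list of 23 other postsynaptic density proteins 4 fell and none rose. Of all genes 1.93%, and of the abundant ones 5.57%, were called lower. Iqsec2, an exchange factor for ARF6, was 1.16-fold lower per the authors' deposited table, with adjusted p = 0.00568 by DESeq2. Kalrn, a guanine nucleotide exchange factor of spines, was 1.15-fold lower in that table, and Tanc1, a scaffold that binds PSD-95, was 1.16-fold lower. Lin7b, a small PDZ adaptor, was 1.23-fold lower per the authors' deposited table (95% interval 1.08-fold to 1.39-fold). Next without passing came Cnksr2, a scaffold of Ras signalling, at -0.16 ± 0.06 (log2), and Lin7c, a paralog of Lin7b, at -0.20 ± 0.08 per the authors' deposited table.

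**Figure D3:**
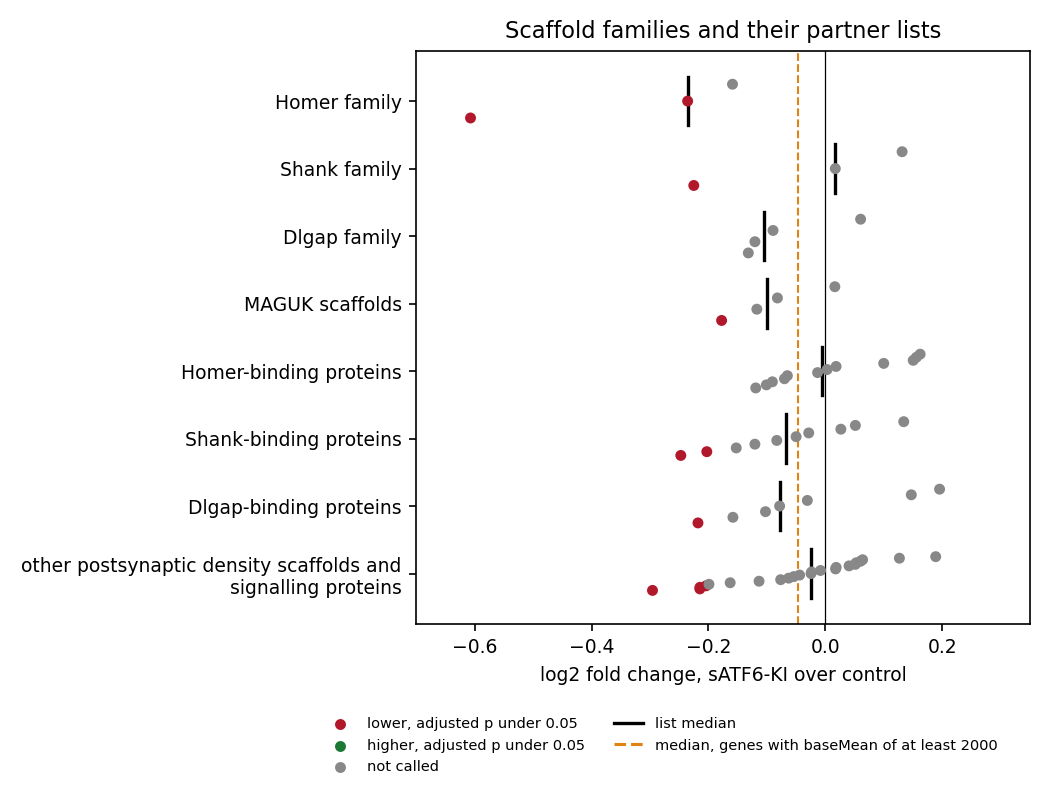
Log2 fold change, sATF6-KI over control, of each gene (points) in the scaffold families and the 5 partner lists, with the list median as a black bar and the median of genes with a baseMean of at least 2000, -0.05, as a dashed line. No point is called higher, and the Homer family has the lowest median, -0.24, of the 8 rows drawn.

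Cell type markers moved in the same comparison, and their values stand beside the scaffold genes. Hippocampal neuron markers were present, with a baseMean of 7848 for Neurod6, a factor of pyramidal neurons, and 5769 for Prox1, a factor of dentate granule cells. Of 10 markers of glutamatergic forebrain neurons, the cells that carry most dendritic spines, 2 were called lower and none higher per the authors' deposited table, with a median log2 fold change of -0.12. The 2 were Itpka, 1.40-fold lower, and Zbtb18, a transcriptional repressor, 1.18-fold lower. At an unadjusted p under 0.05, 4 of the 10 were lower. None of 8 GABAergic interneuron markers passed the authors' DESeq2 test, and none had an unadjusted p under 0.05, with a median of -0.01 (log2). Shares over all listed genes were 1.93% called lower and 5.34% called in either direction, so 0 of 8 called is near them. For an unadjusted p under 0.05 the shares were 7.59% lower and 8.2% higher. The difference between the neuron and interneuron lists was not tested.

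All 8 choroid plexus markers were higher per the authors' deposited table, with log2 fold changes from 0.35 to 1.07 and a median of 0.47, and Tmem72, Kl and Clic6 had the smallest adjusted p. Of 7 endothelial and mural markers 1 was called higher, the pericyte receptor gene Pdgfrb at 1.19-fold, and 3 were higher at an unadjusted p under 0.05. Astrocyte markers numbered 7, of which Aldoc alone was called, at 1.19-fold lower per the authors' deposited table, with a median of -0.16 (log2). Of 6 microglia markers 1 fell, P2ry12 at 1.23-fold lower per the authors' deposited table, and of 7 oligodendrocyte markers none was called by DESeq2, with 3 lower at an unadjusted p under 0.05 and a median of -0.13 (log2). Beside these counts, 5.34% of all listed genes were called in either direction, so 0 or 1 called in a list of 6 or 7 is near that share. For an unadjusted p under 0.05 the shares of all genes were 7.59% lower and 8.2% higher. The scaffold median of -0.13 thus lay beside those of the glutamatergic neuron, astrocyte and oligodendrocyte lists alike. The part of these shifts in the values of Homer3, Homer1 and Shank3 was not tested, and the marker levels in each group were not used here.

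Because Homer3 is abundant in Purkinje cells, markers of cerebellar cells were included. None of 5 was called by DESeq2 or had an unadjusted p under 0.05. With 5.34% of all listed genes called in either direction, 0 of 5 is near that share. For an unadjusted p under 0.05 the shares of all genes were 7.59% lower and 8.2% higher. Pcp2, a Purkinje cell gene, had a baseMean of 7.64 and Gabra6, a granule cell gene, of 17.1, beside 2084 for Homer3. Car8, another Purkinje cell gene, had a baseMean of 233 and a log2 fold change of 0.23 per the authors' deposited table, with an interval from -0.06 to 0.51. Cbln3, a granule cell gene, had a baseMean of 66.9, and the authors' deposited table gives it a log2 fold change of 2.24 with an interval from -0.32 to 4.81. There Gabra6 had 3.04, with an interval from -2.42 to 8.50, and Pcp2 had 0.59, with an interval from -1.10 to 2.28. These intervals all include 0, so none gives a direction. Any part of cerebellar tissue in the value of Homer3 was not tested. Calb1, which hippocampal neurons also make, had -0.12.

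**Figure D4:**
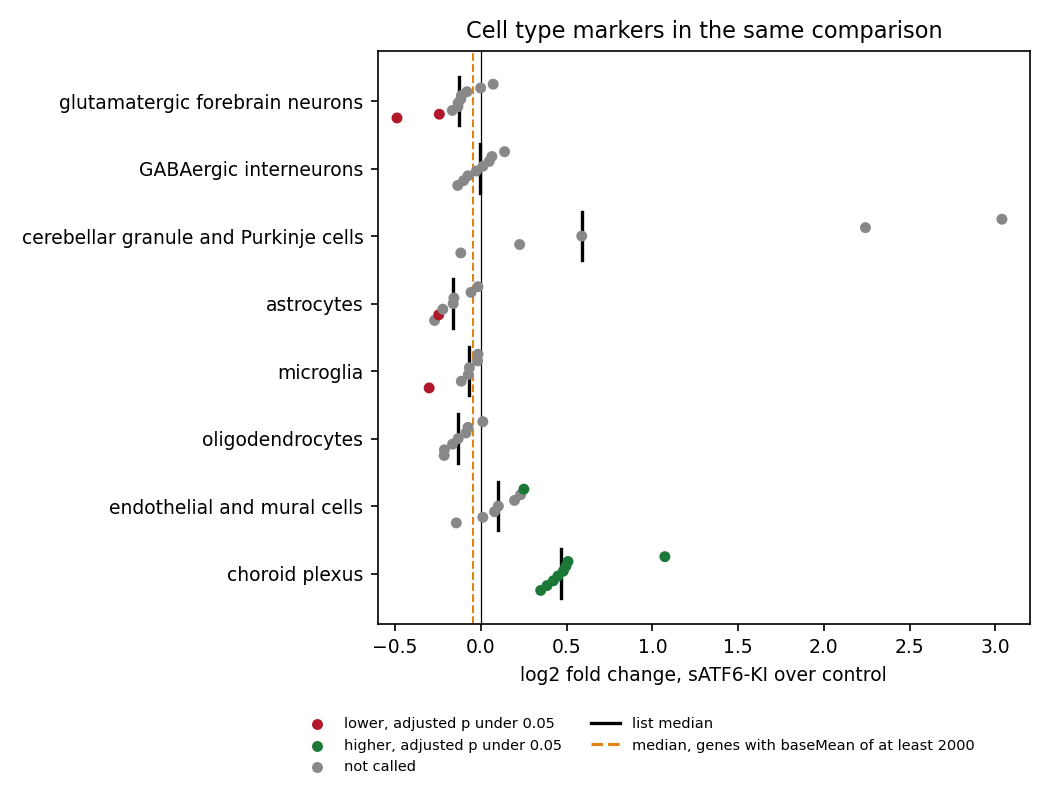
Log2 fold change, sATF6-KI over control, of each cell type marker (points), with list medians as black bars and the median of genes with a baseMean of at least 2000 as a dashed line. All 8 choroid plexus markers lie above 0, from 0.35 to 1.07, while the 2 called neuron markers lie below 0, and the farthest cerebellar points are genes of low baseMean that were not called.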

How the data were processed

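Per the labels' protocols, snap-frozen hippocampus gave Trizol RNA, which was DNase-treated and made into libraries with a KAPA stranded mRNA kit. Per the submitters' processing notes, Trim Galore, cutadapt, STAR, HTSeq and DESeq2 were used; the sources used here give no versions, genome build, annotation or gene filter. Per the file headers, the authors' table holds the log2 fold change, the Wald statistic (a score with no fixed range), the p-value and its adjusted form. The deposited baseMean is a normalized signal. The 6 library columns match no sample label and were not used, so depth is unknown, and the edgeR test planned for counts was replaced by the authors' DESeq2 test.

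The deposited p-value and adjusted p were recomputed from the Wald statistic to within 2.89e-15 and 3.89e-15. The deposited standard error was 0.84 to 0.95 times the Wald standard error among the 10 genes; the latter was used. Work was done in Python 3.11.15 with scipy 1.17.1, numpy 2.4.6 and pandas 2.3.3, figures in matplotlib 3.10.9, and the adjustment was tested on simulated data. Lists were matched by Ensembl ID through GENCODE M21 symbols (all 66 scaffold and partner genes and 57 marker genes). One gene of the partner lists is not reported here and enters none of the counts of those lists. The genes and lists were chosen with earlier results of these data known. Named are all 10 scaffold genes and, per partner list, every called gene (at most 6) and the 2 uncalled with the smallest p; per marker list, at most 3 called genes. Others named, chosen after their values were seen, are Esr1, Atf6, Dlgap5, genes next to the scaffold genes, Adcy1, Ddx49, Gm15609, 1700008O03Rik, Neurod6, Prox1, Pcp2, Gabra6, Cbln3, Car8 and Calb1. No likeness of patterns is given, since it needs values per sample.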

Additional observations from a re-analysis of the deposited data

How the results depend on the processing

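No paired analysis was possible because the library columns match no sample label. For the same reason fits without single replicates, other pseudocounts, and edgeR and DESeq2 fits of counts were not run. The 3 scaffold genes called were 1, Homer3, at an adjusted p under 0.01, by Bonferroni and with a fold change of at least 1.2. The 8 partner genes called were 2, 0 and 1 under these settings, which tighten the call by construction. At an adjusted p under 0.1 they were 3 and 10. With a baseMean of at least 10, with protein-coding genes alone, and with a baseMean of at least 2000, the counts were 3 and 8. The last setting was chosen after seeing the data and kept 47 of the 56 partner genes. Under it, Lin7b was below the filter and Cnksr2 was gained. The share of all genes called under each of these other settings was not computed, so these counts have no background beside them. The 36 named genes include many that were not called, and only the called ones could lose a call. Of these called genes, 10, 14 and 12 lost it under the 3 tighter settings. Magi1 and Cnksr2 gained a call at 0.1. The 95% interval left out 0 for 6 of the 10 scaffold genes with the Wald error and for 6 with the deposited one. The fold change of each gene is the same deposited value throughout, so small folds such as those of Homer1 and Shank3 rest on the threshold.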

Other observations

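The nearest listed genes on either side of the 10 scaffold genes, leaving out genes that overlap a scaffold gene, were looked at after seeing the data. None of these 20 neighbours was called by the authors' DESeq2 test, 1 had an unadjusted p under 0.05 (Gm14169, next to Dlgap4, higher), and their median log2 fold change was -0.01. Over all listed genes 5.34% were called in either direction, so 0 of 20 is near that share. At an unadjusted p under 0.05, 7.59% of all genes were lower and 8.2% higher. Beside Homer3, which fell by 0.61 on the log2 scale, Sugp2, a G-patch protein gene 2.91 kb before it, had -0.04 ± 0.07 and Cope, a coatomer subunit gene 8.16 kb after it, had -0.05 ± 0.08 per the authors' deposited table. Cttn, the gene for cortactin and a Shank-binding protein, is the neighbour of Shank2 and had -0.05 ± 0.06 there.

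Dlgap5, the family member known from mitotic spindles and not from synapses, had a baseMean of 11.1 and a log2 fold change of 0.12 ± 0.64 per the authors' deposited table, which gives no usable direction.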
